A study of Drosophila melanogaster with 26 samples.

Results

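In male S2 cells of *Drosophila melanogaster*, 96 genes were lower with *jasper* as well as with *jil-1* RNAi. They were chosen from the counts themselves. Reads on the strand of each gene were divided by the reads on all genes of the library and scaled to counts per 1e6 reads (CPM). A gene was eligible with a mean of at least 5 CPM over control replicates 4, 5, 8 and 9, and it was a member when the log2 ratio of the RNAi mean to the control mean, with 0.5 CPM added to both, was -0.5 or lower for both treatments. Of 17489 genes in the files 6773 were eligible, and the 96 members were 1.42% of them. A further 116 eligible genes met the limit upon *jasper* RNAi alone and 74 upon *jil-1* RNAi alone, so that the members were 45.3% of the first list and 56.5% of the second. Both treatments were set against the same control samples.

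JIL-1 is a kinase of interphase chromosomes that phosphorylates a serine in the tail of histone H3. JASPer is its binding partner and carries a PWWP domain, a fold that in many proteins recognises methylated histone tails. Loss of JIL-1 is known in flies for changes in the structure of polytene chromosomes, above all of the male X, and for the spread of heterochromatic marks. The members do not form a single known pathway. They include proteases and receptors of the fly's humoral and cellular immunity, for which hemocyte-like lines such as S2 and Kc are a common model, and enzymes of detoxification, pigment formation and lipid handling.

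S2 cells (the S2-DRSC line, of male origin) and Kc cells (the Kc167 line, of female origin) were given double-stranded RNA against *jasper*, against *jil-1* or against a control sequence at 10 µg/mL for 3 days and again for 4 days. Every library, controls included, therefore came from cells that had taken up double-stranded RNA. The methods list 2 alternative double-stranded RNAs for each target, *gst* and *gfp* as controls, and 2 kits for the removal of ribosomal RNA. The labels do not tell which of these a sample received, so their part in any difference between samples was not tested. Total RNA freed of ribosomal RNA was sequenced from strand-specific libraries. The samples used by the rule were 4 control, 4 *jasper* RNAi and 4 *jil-1* RNAi S2 samples in the batches labelled 1 (replicates 4 and 5) and 2 (replicates 8 and 9). A batch 3 held 1 control and 1 *jil-1* RNAi S2 sample, both with replicate number 11, and 12 Kc samples, 4 of each treatment, came from 2 batches. The labels do not say whether replicates were separate cultures, so all p-values measure the spread between these samples only.

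Between 4038886 and 17648358 reads per S2 library and between 2513223 and 17419281 per Kc library lay on genes. All 10 hemocyte markers were above 1 CPM in control cells of both lines, but at unlike levels. *Hml* had means of 27.6 CPM in S2 and 2096 CPM in Kc controls, and *Pxn* of 3268 and 64.3 CPM. The 3 fat body markers were below 1 CPM. Not all markers of other cells were. The neuronal *elav* had 29.2 and 26.5 CPM and *brp* 0.94 and 26.0 CPM. The germ line marker *bam* had 0.46 and 71.6 CPM, and the muscle markers *up* 2.44 and 0.21 CPM and *Mhc* 0.51 and 1.05 CPM. *nSyb* and *Act88F* were below 1 CPM in both. The noncoding RNA *roX2*, which coats the male X, had a mean of 714 CPM in S2 and 1.28 CPM in Kc control cells. *roX1* was low in both lines (2.19 and 1.39 CPM), and *msl-2* had 48.1 and 7.39 CPM. *JASPer* and *JIL-1* were not members. In S2 cells, reads on their strands reached 1590 CPM for *JASPer* and 678 CPM for *JIL-1* after RNAi against each, against at most 158 and 89.7 CPM in control cells. Reads from added double-stranded RNA and from the transcripts cannot be told apart, so these values do not measure the depletion.

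The members' ratios were similar for both treatments. Their median log2 ratio was -0.78 upon *jasper* RNAi (range -2.37 to -0.51) and -0.79 upon *jil-1* RNAi (range -2.81 to -0.50), while the median of all eligible genes was 0.03 for both. These values chose the members and are given as a description, with no test. Together the members had 5005 ± 391 CPM (SD, n = 4) in control cells, 2788 ± 50.3 CPM upon *jasper* RNAi and 2914 ± 20.7 CPM upon *jil-1* RNAi. In bulk RNA, fewer cells of a kind and less RNA per cell cannot be told apart. Of the 96 members 84 differed by no more than 0.5 on the log2 scale between the treatments, and 17 were at -1 or lower with both. All 4 RNAi samples lay below all 4 controls for 76 members upon *jasper* RNAi, as for 7.78% of the eligible genes, and for 77 upon *jil-1* RNAi, as for 5.86%. Since the rule used these samples, nothing follows from the excess.

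**Figure D1:**
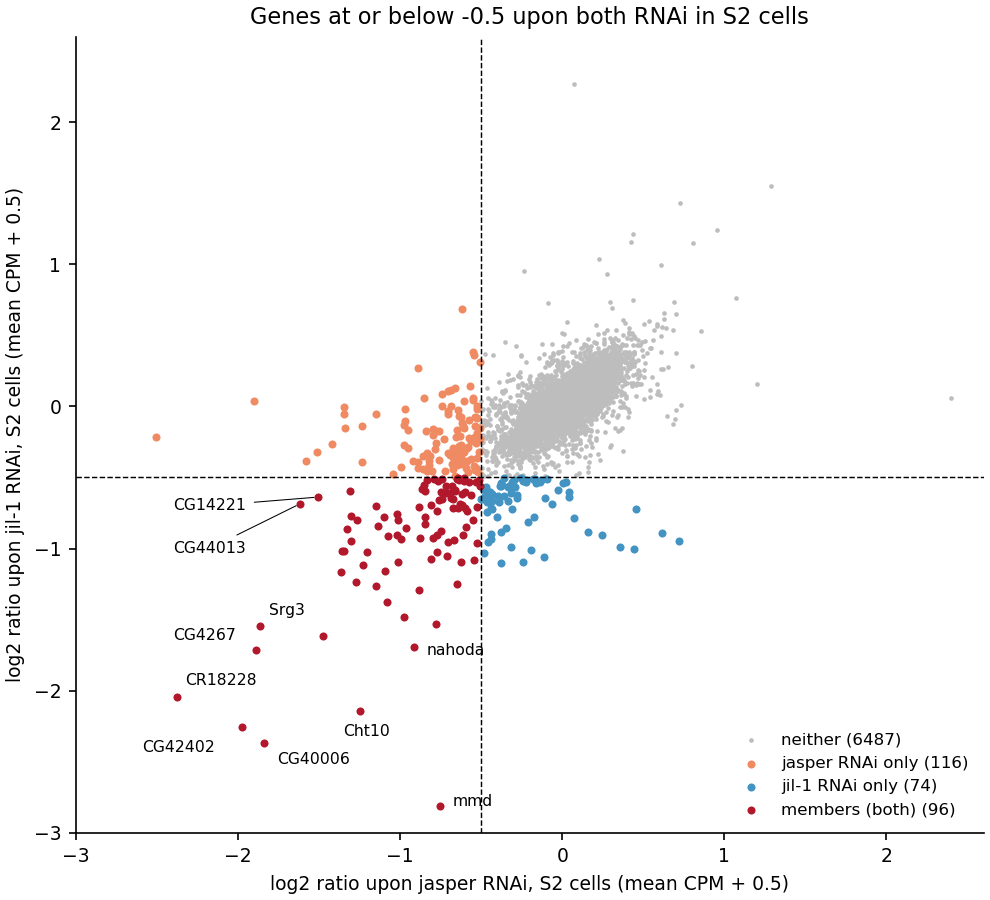
Each point is an eligible gene of S2 cells, with the log2 ratio of mean CPM upon *jasper* RNAi on the x axis and upon *jil-1* RNAi on the y axis, both against the same 4 control samples; dashed lines mark -0.5. The 96 members fill the lower left corner, with *mmd* lowest upon *jil-1* RNAi (-2.81) and *CR18228* lowest upon *jasper* RNAi (-2.37).

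Within batch 1 the members' medians were -0.77 and -0.74 upon *jasper* and *jil-1* RNAi, and within batch 2 they were -0.91 and -0.87. Taken within a batch, 88 members were at -0.5 or lower upon *jasper* RNAi in each batch, and 83 upon *jil-1* RNAi in each. Of the 6773 eligible genes 228 and 242 were so upon *jasper* RNAi in batches 1 and 2, and 174 and 208 upon *jil-1* RNAi. The rule used the samples of both batches, so nothing follows from the members' counts. Just inside the limit lay *elB* (-0.61 and -0.50), *CG30344* (-0.64 and -0.50) and *HIP* (-0.51 and -0.56). Just outside it lay *lncRNA:CR45973* (-0.4997 and -0.65), *CG40160* (-0.49 and -0.58) and *CG43088* (-0.66 and -0.49).

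The 10 members with the lowest mean of both ratios were *CR18228*, *CG42402*, *CG40006*, *CG4267*, *mmd*, *Srg3*, *Cht10*, *Cyp12a5*, *nahoda* and *Swim*. *CR18228*, annotated as a pseudogene, had 23.1, 23.9, 14.3 and 10.9 CPM in control replicates 4, 5, 8 and 9, from 2.01 to 4.17 CPM upon *jasper* RNAi and from 2.61 to 5.69 CPM upon *jil-1* RNAi. *CG42402* had 28.2, 29.4, 41.1 and 38.5 CPM in controls, 7.47, 8.42, 7.22 and 10.4 CPM upon *jasper* RNAi and 7.84, 8.67, 5.72 and 4.92 CPM upon *jil-1* RNAi. For both genes every RNAi sample was below every control, and the ratios were -2.37 and -2.05 for *CR18228* and -1.97 and -2.26 for *CG42402*. *CG40006* encodes a protein of the CD36 family of scavenger receptors. It had 28.8, 30.5, 25.9 and 23.2 CPM in controls, from 4.24 to 9.68 CPM upon *jasper* RNAi and from 3.09 to 6.20 CPM upon *jil-1* RNAi, again without overlap.

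Of these 10 genes *Srg3* and *Swim*, the latter encoding a secreted protein that binds Wingless, had control levels that differed most between batches. *Srg3* had 5.64 and 5.92 CPM in the controls of batch 1 but 42.0 and 35.2 CPM in those of batch 2. Upon *jasper* RNAi it had 1.84, 1.88, 9.30 and 9.96 CPM, so that its RNAi samples lay below the controls within each batch but not across them. *Swim* had 42.2, 17.7, 141 and 76.0 CPM in controls and 16.1 to 35.2 CPM upon *jasper* RNAi. Its lowest control, replicate 5, lay among the RNAi samples.

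**Figure D2:**
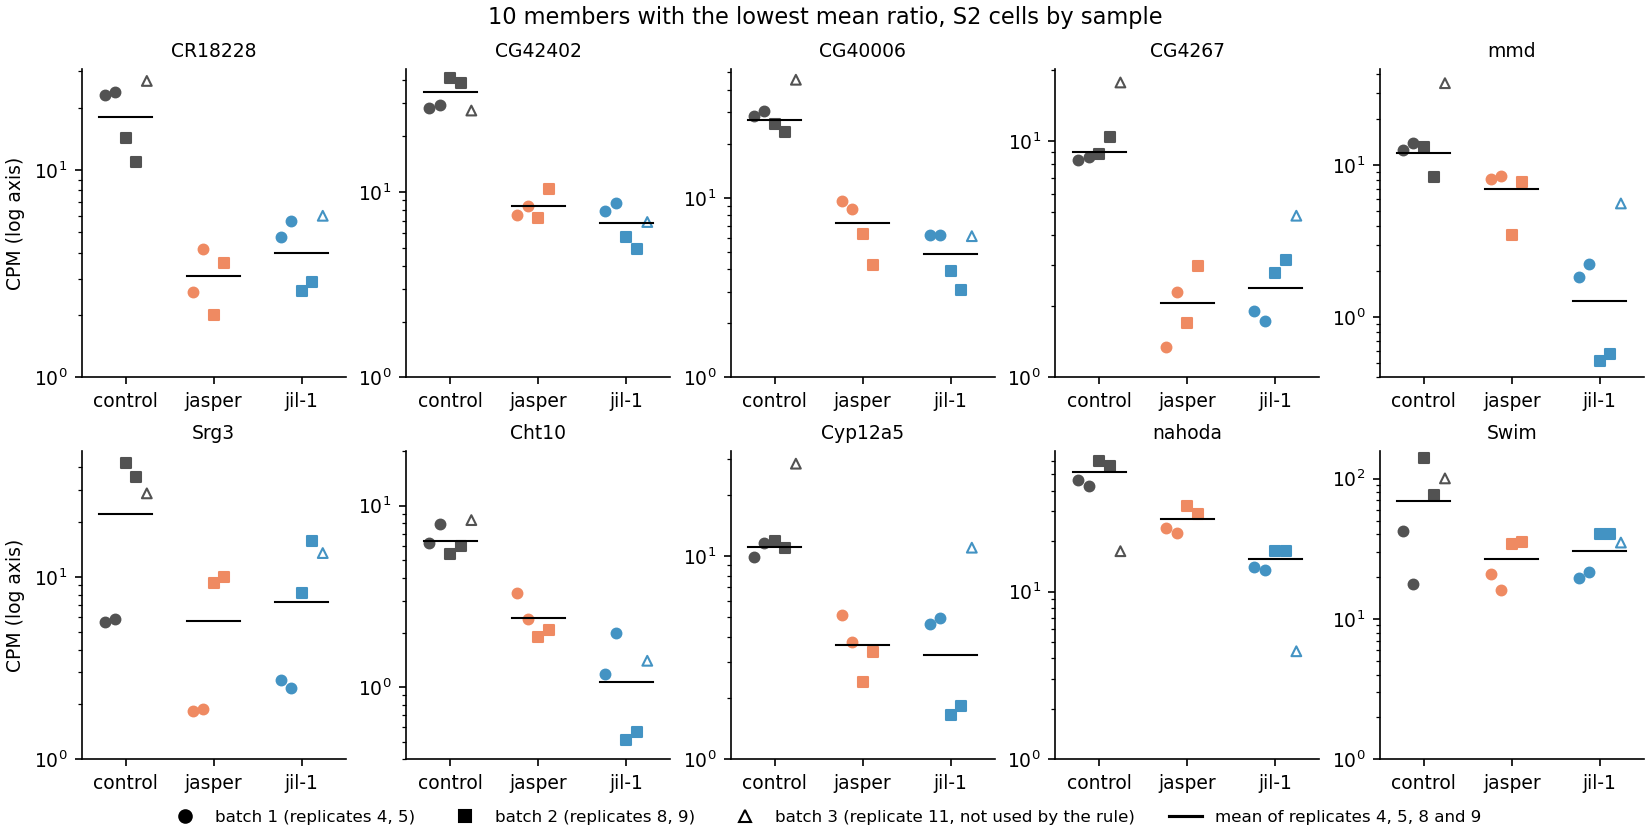
CPM on a log axis of the 10 members with the lowest mean ratio, in each S2 sample by treatment; filled circles are batch 1, filled squares batch 2, open triangles batch 3, and bars the mean of replicates 4, 5, 8 and 9. *Srg3* and *Swim* differ between batches, and *mmd* is lower upon *jil-1* RNAi (at most 2.23 CPM in batches 1 and 2) than upon *jasper* RNAi (3.45 to 8.42 CPM).

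A few members responded unequally. *mmd*, which encodes a metalloprotease of the ADAM family, had 12.6, 14.0, 13.1 and 8.35 CPM in controls, 8.08, 8.42, 3.45 and 7.69 CPM upon *jasper* RNAi and 1.82, 2.23, 0.51 and 0.57 CPM upon *jil-1* RNAi. Its *jasper* RNAi samples overlapped the controls and its *jil-1* RNAi samples did not. *Cht10*, encoding a chitinase, likewise had a lower ratio upon *jil-1* RNAi (-2.14) than upon *jasper* RNAi (-1.25). The opposite order was seen for *CG44013* (-1.62 upon *jasper* and -0.69 upon *jil-1* RNAi) and *CG14221* (-1.51 and -0.64). These 4 genes were chosen for the difference, which was not tested.

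By counts in controls, 6 members (*Zip99C*, *Marf1*, *yellow-f*, *CG9917*, *Sgsh* and *drpr*) held 42.9% of all reads on members. CPM is not divided by gene length, so this is a share of reads and not of transcripts. *Zip99C*, a zinc transporter, had 365, 317, 838 and 684 CPM in controls and between 161 and 377 CPM upon *jasper* RNAi. *Marf1*, an RNA-binding regulator of meiosis, had 405, 415, 428 and 427 CPM in controls, 184, 199, 189.6 and 211 CPM upon *jasper* RNAi and 192, 183, 190.4 and 183 CPM upon *jil-1* RNAi. Its groups were tight and did not overlap, with ratios of -1.09 and -1.16. The other members had from 5.19 CPM (*CG31875*) to 180.4 CPM (*CG42748*) in controls, and the median over the members was 23.6 CPM, against 55.5 CPM over all eligible genes.

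The members were next read by what they are known to do, in groups drawn up after the members and their values were known. The RNAi samples of both treatments lay below all controls in 12 of 13 immune, 10 of 12 detoxification and lipid, 7 of 12 surface and signalling, 4 of 6 regulatory and all 3 pigment members, in 4 of 9 noncoding RNAs and pseudogenes and in 33 of 41 others. This made 73 of the 96, against 3.40% of eligible genes, and since the rule used these samples nothing follows from it. The first group holds 13 genes of immune proteolysis, clotting and uptake, with medians of -0.87 and -0.91. *grass* encodes a protease upstream of Toll, *Sp7* a protease of melanization and *Spn77Ba* a serpin that restrains it. *fon* encodes a clotting protein, *drpr* the engulfment receptor Draper and *Sr-CIV* a scavenger receptor. *Sr-CIV* had 29.5, 31.6, 32.8 and 29.7 CPM in controls, 14.0 to 15.3 CPM upon *jasper* RNAi and 15.1 to 18.1 CPM upon *jil-1* RNAi. *drpr* had 172 to 198 CPM in controls and, with either treatment, no more than 145 CPM. Of the 13 genes only *CG33465* had RNAi samples that overlapped its controls, which themselves differed between batches (12.02 and 13.8 against 4.52 and 3.71 CPM).

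Serine proteases and their catalytically inactive homologues were the family with most members, 8 of 32 eligible genes (25%, against 1.42% of all eligible genes). They are *Erasp*, *CG33465*, *Sp7*, *CG16710*, *grass*, *CG43125*, *CG43124* and *CG34437*, identified by RefSeq synonyms. The family was looked up because several members were seen, so its share is a description. Over all 32 genes the median ratios were -0.36 for *jasper* and -0.38 for *jil-1* RNAi, and 26 and 25 of them were below 0. *CG34437* had 19.5, 15.6, 14.6 and 19.9 CPM in controls, 8.45, 7.44, 7.29 and 5.92 CPM upon *jasper* RNAi and 11.8, 9.16, 6.01 and 6.24 CPM upon *jil-1* RNAi. All 8 of its RNAi samples were below all of its controls.

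The second group holds 12 genes of detoxification and of lipid, sugar and zinc handling, with medians of -0.74 and -0.73. Among them are the cytochrome P450 genes *Cyp12a5*, *Cyp4p1* and *Cyp4p3*, the glutathione S-transferase genes *GstE7* and *GstE8* and *Ugt304A1*, a UDP-glycosyltransferase gene. Of eligible genes with symbols of *Cyp* and a digit 3 of 23 were members (13.0%), but the 23 include *Cyp1* and *Cyp40*, which are not P450 genes. Glutathione S-transferases had 2 of 21 (9.52%) and UDP-glycosyltransferases 1 of 9 (11.1%), against 1.42% of all eligible genes. These families were looked up after the members were seen, so the shares are a description. *Cyp12a5* had 9.85, 11.6, 11.8 and 10.9 CPM in controls, 2.39 to 5.14 CPM upon *jasper* RNAi and 1.64 to 4.95 CPM upon *jil-1* RNAi. *Sgsh*, the sulfamidase of heparan sulfate breakdown, had 227 to 279 CPM in controls and 103 to 195 CPM upon RNAi. *Lip4* (a lipase), *Lsd-1* (a perilipin of lipid droplets), *Agpat2* (an acyltransferase) and *wun2* (a lipid phosphate phosphatase) complete the group's named functions, with ratios between -0.92 and -0.51. The 3 pigment genes were *yellow-f* and *yellow-f2*, whose products act on dopachrome, and *e* (*ebony*), whose product joins beta-alanine to dopamine.

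The cell surface, the matrix, signalling or cell shape are the place of action of 12 members, with medians of -0.99 and -1.12. Beside *mmd*, *Cht10* and *Swim* these were *Nrt* (an adhesion molecule), *Muc14A* (a mucin), *sog* (an antagonist of BMP ligands), *numb* (an inhibitor of Notch), *nAChRalpha4* (a subunit of nicotinic acetylcholine receptors), *Cadps* (release of dense-core vesicles), *sdt* (apical polarity), *zormin* (a titin-like muscle protein) and *p38c* (a stress-activated kinase). *nAChRalpha4* had 12.2, 12.9, 12.3 and 9.97 CPM in controls, 4.52 to 7.36 CPM upon *jasper* RNAi and 2.40 to 6.19 CPM upon *jil-1* RNAi. *Cadps* upon *jasper* RNAi split by replicate, with 6.12 and 6.85 CPM in replicates 4 and 8 but 15.2 and 15.3 CPM in replicates 5 and 9, against 14.2 to 19.9 CPM in controls. In replicates 4 and 8 most reads on *JASPer* lay on the opposite strand and in replicates 5 and 9 on its own strand, and which double-stranded RNA either pair received is not given in the labels. With each of these pairs of *jasper* RNAi samples taken alone, the same 82 of the 96 members met the limit in both. The rule had used these samples, and the controls and the *jil-1* RNAi ratio stayed the same, so nothing follows from this count.

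Transcription, RNA or chromatin is regulated by 6 members, with medians of -0.93 and -0.95. *tio* and *elB* encode zinc-finger proteins, *AGO3* and *SoYb* act in the piRNA pathway, and *Haspin* encodes a mitotic kinase of histone H3. *AGO3* had 11.6, 16.7, 15.4 and 12.3 CPM in controls, 6.49 to 8.97 CPM upon *jasper* RNAi and 3.34 to 5.19 CPM upon *jil-1* RNAi. The 9 noncoding RNAs and pseudogenes include *lncRNA:CR46064*, *snRNA:U1:82Eb* and *tRNA:Lys-CTT-1-13*. *lncRNA:CR46064* had 35.9, 41.0, 37.8 and 46.6 CPM in controls, 17.0 to 20.6 CPM upon *jasper* RNAi and 14.6 to 16.3 CPM upon *jil-1* RNAi. Its groups did not overlap. The U1 and lysine tRNA genes belong to families of near-identical copies, and their counts are uncertain, since only reads that aligned to a single place were counted. Which kit removed ribosomal RNA from these libraries is not given in the labels. How far the paralogues *GstE7* and *GstE8*, *yellow-f* and *yellow-f2*, or *Cyp4p1* and *Cyp4p3* share sequence was not examined. The remaining 41 members, with medians of -0.74 and -0.71, are mostly known by a number only. Among them 3 (FBgn0033359, FBgn0038341 and FBgn0259247) were not found in the annotation used here.

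Some members were in lists of genes by function, which were drawn up with earlier results of these data known. They were *Sr-CIV* and *drpr* of 25 eligible hemocyte and scavenger genes, *mmd* of 19 matrix genes, *Cht10* of 8 chitin genes, *nAChRalpha4* of 23 ion channel genes, *grass* of 24 immune signalling genes, and *Nrt* of 19 transporter genes, although *Nrt* is an adhesion molecule. No member was among 79 ribosomal protein, 53 cytoskeleton, 44 signalling, 30 adhesion, 14 ecdysone response, 8 dosage compensation, 5 histone or 4 homeodomain genes. The lists were not complete, since the signalling list lacked *sog*, *numb* and *p38c* and the adhesion list lacked *Nrt*. Members were 1.42% of all eligible genes, so few or none would fall into lists of this size, and nothing follows from the counts. No antimicrobial peptide gene was eligible. The lists' medians lay between -0.13 and 0.14 with either treatment.

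The pair of batch 3 libraries was not used by the rule and holds *jil-1* RNAi only. With 1 control and 1 RNAi sample no test was possible. In this pair 82 of the 96 members had a log2 ratio of -0.5 or lower, against 3.90% of the 6773 eligible genes, and 93 were below 0, against 42.2%. The members' median was -0.79 and that of all eligible genes 0.04. Genes that met the rule's limit with *jil-1* RNAi alone had a median of -0.59 (45 of 74 at -0.5 or lower), and those that met it with *jasper* RNAi alone had a median of -0.29 (25 of 116). *CG40006* had 45.6 CPM in the control and 6.13 CPM upon *jil-1* RNAi, the lowest ratio of the members (-2.80). *mmd* had 34.6 and 5.59 CPM, *Cht10* 8.33 and 1.40 CPM, and *Marf1* 256 and 122 CPM.

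The members that were not lower were *tRNA:Lys-CTT-1-13* (0.73), *CG14221* (0.07) and *CG43125* (0.03). *snRNA:U1:82Eb* was level, with 19.1 and 19.0 CPM. By group, 12 of 13 immune, 11 of 12 detoxification and lipid, 10 of 12 surface and signalling, 4 of 6 regulatory and all 3 pigment members were at -0.5 or lower, as were 5 of the 9 noncoding RNAs and pseudogenes and 37 of the other 41. Over the 32 serine protease genes the median was -0.26, with 23 below 0 and 12 at -0.5 or lower. The control of batch 3 had more reads on members than other controls (5990.3 against 4635 to 5493 CPM). Set against the mean of controls 4, 5, 8 and 9 instead, the *jil-1* RNAi sample had 59 members at -0.5 or lower, against 5.95% of eligible genes, and a median of -0.62.

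**Figure D3:**
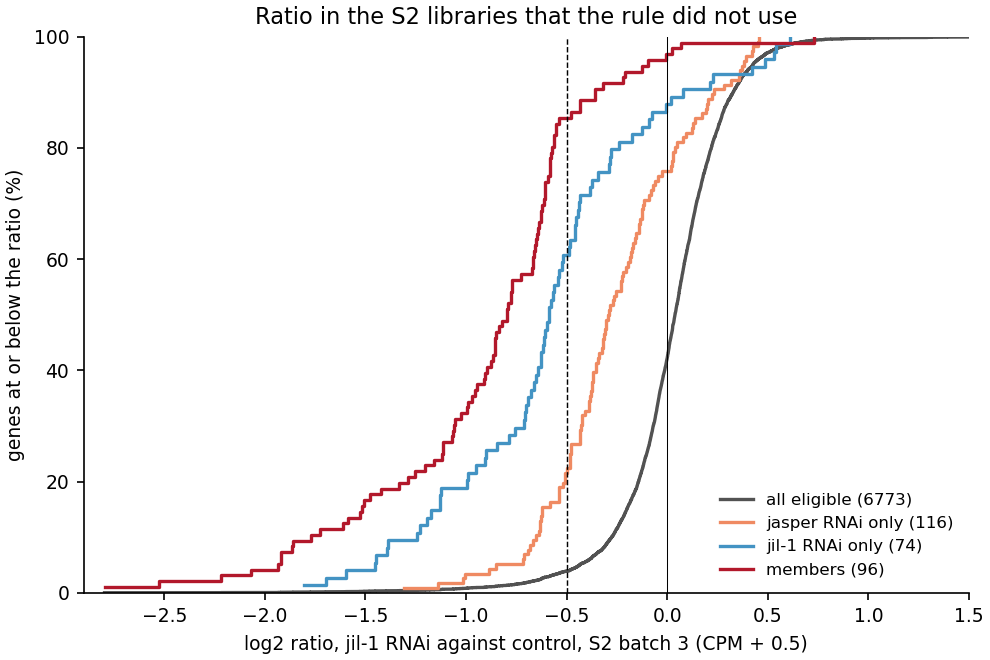
Share of genes (y axis, in percent) at or below a given log2 ratio of *jil-1* RNAi to control CPM in the S2 libraries of batch 3 (x axis), for the members, for genes chosen upon a single RNAi and for all eligible genes. The members' curve lies leftmost, with 82 of 96 at or below -0.5 (dashed line).

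The members lay on every major chromosome arm. There were 24 on 2L (2.01% of the arm's eligible genes), 23 on 3R (1.43%), 18 on 2R (1.36%), 14 on 3L (1.11%) and 11 on the X (0.948%). The X thus had the lowest share of the 6 chromosomes and arms, although the median of its eligible genes was -0.07 upon *jasper* and -0.04 upon *jil-1* RNAi. On the small chromosome 4 there were 3 members, 5% of its 60 eligible genes, namely *CG32017*, *Cadps* and *CG1674*. *CG1674* had 74.0, 85.7, 98.3 and 83.9 CPM in controls, 48.3 to 58.6 CPM upon *jasper* RNAi and 51.2 to 52.9 CPM upon *jil-1* RNAi. These groups did not overlap. With 3 genes no more than this count can be given.

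Along the arms, 9 of the 107 eligible genes within 2 Mb of the centromere end were members (8.41%), against 1.12% of those beyond 10 Mb (52 of 4642). The distance was taken from the outermost annotated gene, and the bins were set after the data had been seen, so no test was made. Of the 9, 8 were on 2L, where they were 17.0% of 47 eligible genes. They were *tio*, *CG31601*, *CG42748*, *lncRNA:CR44809*, *CG3635*, *Marf1*, *CG40006* and *Cht10*, and the other was *lncRNA:CR41257* on 2R. The median of all 47 genes in this stretch of 2L was -0.01 upon *jasper* and -0.10 upon *jil-1* RNAi, so that most genes there did not share the members' ratios. The same stretch on the X held 46 eligible genes and 0 members, that on 3L held 5 and 0, and that on 3R held 0 eligible genes. Members were 1.42% of all eligible genes, so few or none would fall into stretches of this size. Nothing follows from the counts of 0.

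**Figure D4:**
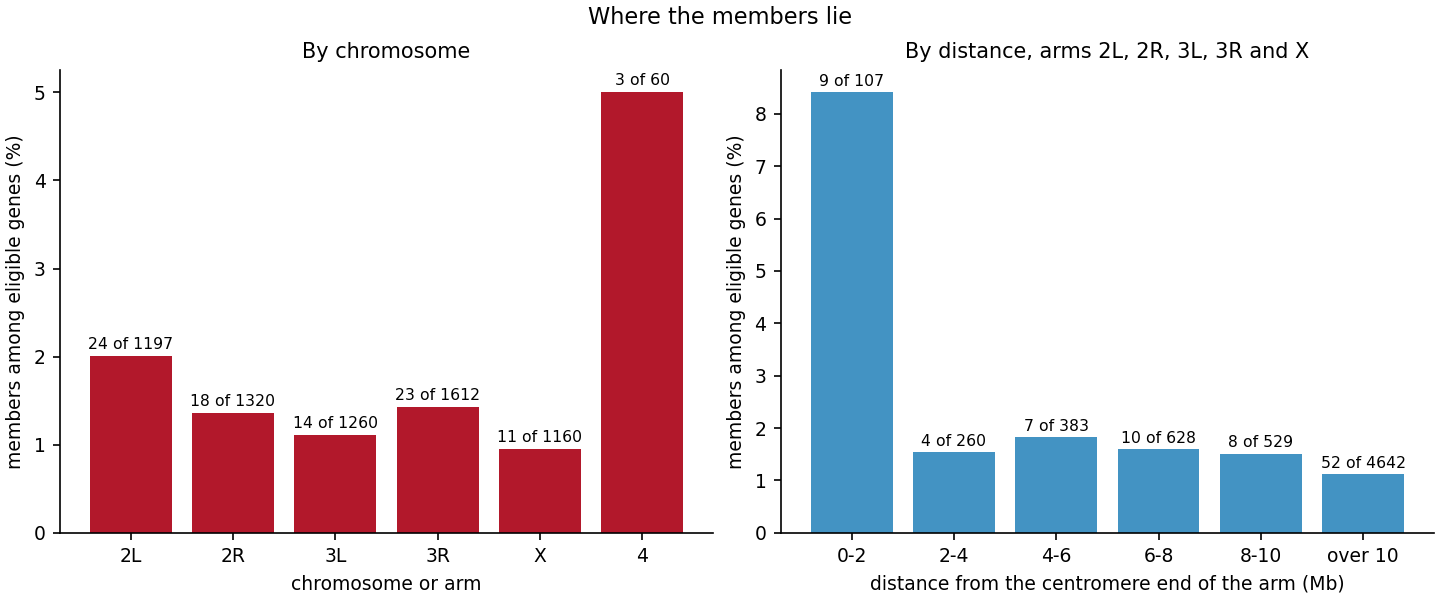
Left, members as a percentage of the eligible genes of each chromosome or arm; right, the same by distance from the centromere end of the arms in Mb, with counts above the bars and bars starting at 0. The bars for chromosome 4 (3 of 60) and for the first 2 Mb (9 of 107) stand highest.

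Of the members, 11 pairs were neighbours among the eligible genes of their chromosome. They held 21 members, 22.6% of the 93 with a position, while 2.75% of eligible genes had a member next to them. Of the pairs 8 lay within 2 kb or overlapped, and 7 were on the same strand. On 3R, *CG44014* (15507940 to 15508886 in BDGP release 6) and *CG44013* (15508896 to 15509917) are 9 bp apart on the minus strand. *CG44013* had 50.7, 54.6, 43.4 and 46.6 CPM in controls and 9.80 to 20.03 CPM upon *jasper* RNAi, and *CG44014* had 12.3 to 19.3 and 4.84 to 7.35 CPM. In a second cluster on 3R the serine protease homologue genes *CG43125* (28262735 to 28263622) and *CG43124* (28263871 to 28264773) are 248 bp apart, and *CG34437* follows 18945 bp further on.

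Other close pairs on the same strand were *Cyp4p1* with *Cyp4p3* (180 bp), *yellow-f* with *yellow-f2* (193 bp) and *GstE7* with *GstE8* (145 bp). *CG31875* and *SoYb* overlap on the same strand over 6031 bp, so that their reads cannot be fully assigned. *CR43281* and *lncRNA:CR46064* overlap by 755 bp on opposite strands, which the strand-specific counts keep apart. *CG9917* and *CG32579* (54 bp apart on the X; *CG32579* was named after its value was seen), *tio* with *CG31601* (14992 bp) and *lncRNA:CR44809* with *CG3635* (5210 bp) make up the 11. The 161 neighbours that were not members had medians of -0.01 and -0.02, and of 0.01 in batch 3. Of these neighbours 74 were below 0 with both treatments (46.0%, against 30.6% of eligible genes).

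Among the 93 annotated members 84 encode proteins. The median span from first to last base was 2927 bp, against 2723 bp over eligible genes, and the median length of introns was 766 against 372 bp. Genes longer than 10 kb were 27 (29.0%, against 14.97%). Of genes chosen upon *jasper* RNAi alone 8.62% were longer than 10 kb, and their median intron length was 280.5 bp. Of those chosen upon *jil-1* RNAi alone 34.7% were, with a median of 852 bp, so long genes were not particular to the members. These differences were not tested.

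Kc cells differed from S2 cells already with control RNAi. The control level was at least 5 CPM in 60 of the 96 members (62.5%), although 95.4% of the genes eligible in S2 cells reached it in Kc cells. Below 1 CPM were 15 members (15.6%, against 1.86%), and 35 were at least 4-fold lower than in S2 cells (36.5%, against 4.89%). Members and eligible genes had met the same minimum in S2 cells, but their levels there were not alike. The median in S2 controls was 23.6 CPM for the members and 55.5 CPM for eligible genes. The shares were not matched for this level, and its part in them was not tested. Genes that met the limit with a single treatment shared much of this. Below 1 CPM in Kc controls were 14.7% of those chosen upon *jasper* RNAi alone and 14.9% of those chosen upon *jil-1* RNAi alone, and 22.4% and 33.8% were at least 4-fold lower than in S2 cells. By role, the members at least 4-fold lower were 5 of 13 immune, 5 of 12 detoxification and lipid, 3 of 12 surface and signalling, 2 of 3 pigment, 0 of 6 regulatory and 1 of 9 noncoding or pseudogene members, and 19 of the other 41. *Sgsh* had 227 to 279 CPM in S2 and 8.13 to 13.0 CPM in Kc controls, and *CG1674* had at most 0.17 CPM in Kc controls.

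In Kc controls 7 members were at least 4-fold higher than in S2 cells (7.29%, against 1.71%), as were 8.62% and 8.11% of the genes chosen upon *jasper* and *jil-1* RNAi alone. *AGO3* had 196, 255, 234 and 265 CPM there, far above its 11.6 to 16.7 CPM in S2 cells. *rgn* had means of 361 and 26.7 CPM, *yellow-f2* of 58.3 and 6.12 CPM and *Nrt* of 34.6 and 8.16 CPM. *Marf1* was also higher, at 879 to 1164 CPM.

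With 0 reads in at least 1 Kc sample, 12 members were not tested there. They were *CG4267*, *mmd*, *CG44013*, *Ugt304A1*, *CG9521*, *Erasp*, *CG8157*, FBgn0033359, *e*, *CG31778*, *CG1674* and *CG14273*, of which 11 were below 1 CPM in Kc controls and *CG9521* had 4.09 CPM. The other 84 were tested with edgeR's quasi-likelihood test over 8847 genes. Upon *jasper* RNAi 11 members fell (adjusted p below 0.05), against 2.79% of all genes tested, and 3 rose, against 1.76%. Upon *jil-1* RNAi 9 fell, against 2.18%, and 1 rose, against 1.35%. A fit with the replicate number as a block in place of batch gave 12 and 3 upon *jasper* RNAi and 13 and 3 upon *jil-1* RNAi. In all, 15 of the 84 fell with at least 1 treatment, and 5 fell with both. Both treatments were set against the same Kc controls. The shares of all genes tested that fell with either or with both were not counted, so nothing follows from these 2 counts.

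The members' median log2 fold-change in Kc cells was -0.09 upon *jasper* and -0.19 upon *jil-1* RNAi, against 0.005 for all genes tested with either treatment. Below 0 were 50 and 56 of the 84 members (59.5% and 66.7%), against 52.4% and 52.3% of eligible genes. In each same-numbered pair of samples the members' median was below that of all genes tested, with differences from -0.17 to -0.04 upon *jasper* and from -0.33 to -0.02 upon *jil-1* RNAi. Since the rule placed every S2 ratio at -0.5 or lower, the medians of the lines were not compared. Among genes at the S2 limit with *jasper* RNAi alone, 23 of 104 tested fell upon *jasper* RNAi in Kc cells, and among those with *jil-1* RNAi alone 7 of 67 fell upon *jil-1* RNAi.

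The 5 members that fell with both treatments were *CG34437*, *mtsh*, *lncRNA:CR46064*, *CG17264* and *CG43124*. *mtsh* had 130.1, 129, 103 and 92.2 CPM in Kc controls 1 to 4, 78.0, 78.4, 68.7 and 56.9 CPM upon *jasper* RNAi and 86.0, 87.1, 80.1 and 53.7 CPM upon *jil-1* RNAi. Every RNAi sample was below every control, and the log2 fold-changes were -0.72 ± 0.09 (SE, edgeR adjusted p = 0.0014) and -0.58 ± 0.09 (adjusted p = 0.0053). *CG34437* had 33.5, 36.9, 15.5 and 15.6 CPM in controls, 23.5, 21.2, 11.9 and 7.502 CPM upon *jasper* RNAi and 16.2, 17.1, 5.15 and 9.55 CPM upon *jil-1* RNAi. Its groups overlapped across batches but not within them, and its fold-changes were -0.71 ± 0.15 (SE, edgeR adjusted p = 0.021) and -1.21 ± 0.16 (adjusted p = 0.0026). Of the 5 genes *mtsh* alone kept both calls whichever of the 12 samples was left out. The other 4 each lost 1 of their calls without some sample, *CG34437*, *CG17264* and *CG43124* upon *jasper* RNAi and *lncRNA:CR46064* upon *jil-1* RNAi.

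Upon *jasper* RNAi *yellow-f2* and *Muc14A* also fell in Kc cells. *yellow-f2* had 48.2, 74.6, 56.9 and 53.5 CPM in controls and 39.1, 29.6, 40.1 and 31.0 CPM upon *jasper* RNAi, which do not overlap (log2 fold-change -0.78 ± 0.13 SE, edgeR adjusted p = 0.0058). Upon *jil-1* RNAi its value was -0.18 (adjusted p = 0.44). *CG32115* (-0.50), *Tim8* (-0.37), *snRNA:U1:82Eb* (-0.74) and, named after its value was seen, *Haspin* (-0.27) fell as well, but these calls were lost when some samples were left out. That of *snRNA:U1:82Eb* was also lost with the replicate block (log2 fold-change -0.73, adjusted p = 0.058, against 0.045 without).

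Upon *jil-1* RNAi *grass*, *CG30344*, *Srg3* and *CG43125* fell beside the 5. *grass* had 23.7, 23.3, 21.3 and 23.96 CPM in Kc controls and 13.7, 16.1, 13.3 and 13.5 CPM upon *jil-1* RNAi, without overlap (log2 fold-change -0.74 ± 0.12 SE, edgeR adjusted p = 0.0077). *CG30344* fell by 0.85 and *Srg3* by 0.87 on the log2 scale. The calls of *grass* and *CG30344* were kept whichever sample was left out, while that of *Srg3* was lost in 4 of 12 cases (edgeR adjusted p up to 0.063) and that of *CG43125* in 9 of 12 (up to 0.13). Of these 9 genes 3 lie in the serine protease homologue cluster of 3R, namely *CG43125*, *CG43124* and *CG34437*. The call of *CG43125* was lost with the replicate block (log2 fold-change -0.54, adjusted p = 0.058, against 0.040 without).

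In Kc cells 3 members rose. *Cht10* had 4.53, 12.9, 3.72 and 6.83 CPM in controls and 16.6, 27.2, 11.4 and 25.4 CPM upon *jasper* RNAi (log2 fold-change 1.49 ± 0.33 SE, edgeR adjusted p = 0.027). *CG6357* had 6.42, 11.4, 10.7 and 15.3 CPM in controls, 17.8, 22.5, 31.7 and 16.8 CPM upon *jasper* RNAi and 18.8, 19.0, 30.2 and 27.5 CPM upon *jil-1* RNAi, all above the controls (1.00, adjusted p = 0.017, and 1.08, adjusted p = 0.013). *CG31601* had 0.34 to 1.03 CPM in controls and 1.27, 1.26, 1.42 and 3.63 CPM upon *jasper* RNAi (1.77, adjusted p = 0.037). None of the 4 calls held with every sample left out in turn.

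Kc *jasper* RNAi replicate 4, which gave the highest value of *CG31601*, also had 22.01 CPM of *roX2*, where the other Kc libraries had 0.64 to 4.87 CPM, 3.25 CPM of *CG44013* and 2.00 CPM of *CG1674*, which are members nearly absent from Kc controls. The part of these reads in the results was not tested. Without this library 6 members fell and 1 rose upon *jasper* RNAi. Leaving out *jasper* RNAi replicate 2 gave 5 and 0, and leaving out control replicates 1, 2, 3 or 4 gave 5, 7, 5 and 6 members that fell, so that the count of 11 rested on all of these libraries.

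**Figure D5:**
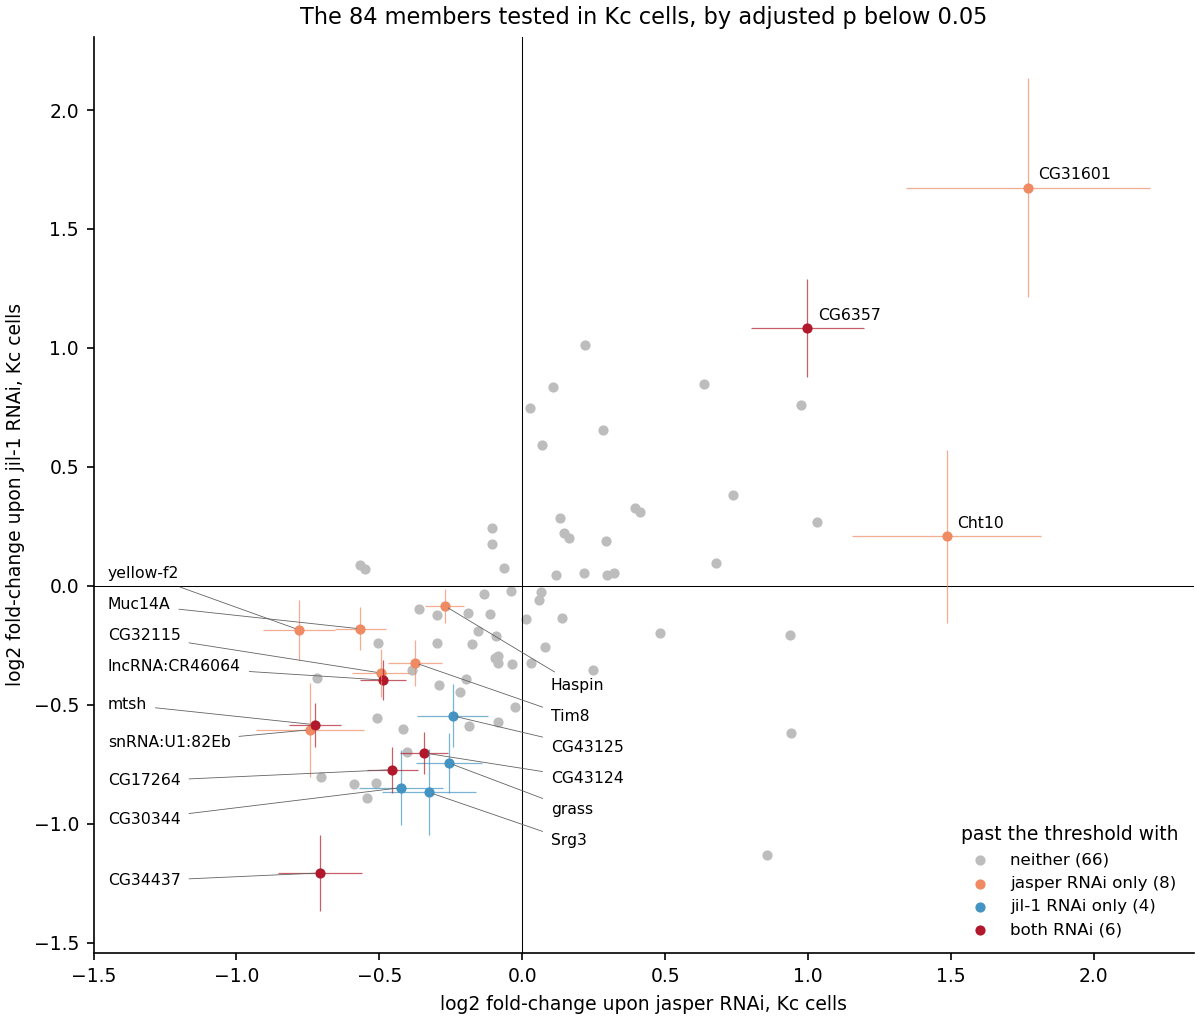
Log2 fold-change of the 84 members tested in Kc cells upon RNAi against *jasper* (x axis) and *jil-1* (y axis), both against the same 4 controls; bars are standard errors and are drawn, with names, for the 18 members past the threshold with either treatment. Of these 15 lie below 0, and *CG6357*, *CG31601* and *Cht10* lie above.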

How the data were processed

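The authors aligned read pairs to BDGP release 6 and deposited, for each of the 26 samples (14 S2, 12 Kc), raw counts per gene as STAR 2.6.0 writes them: without regard to strand, on the opposite strand and on the strand of the gene. STAR 2.6.0 and RSEM 1.3.0 are named in the submitters' processing notes. The main analysis used the last of these columns, from uniquely aligned reads. Counts without regard to strand served as an alternative setting, and those on the opposite strand were used only for the RNAi targets. Between 8.94% and 15.6% of reads were assigned to no gene and left out. Positions came from Ensembl annotation of the same assembly, in which 17215 of 17489 genes were found, and synonyms from RefSeq.

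Members, gene lists and role groups were chosen with earlier results of these data known. Genes named by rule were the 10 with the lowest mean ratio, the 6 with the highest control level, the 2 most negative and 2 most positive differences between treatments, members past the threshold in Kc cells (up to 10 per treatment and direction), 3 on either side of the limit, up to 10 adjacent pairs, up to 4 members of a list and those on chromosome 4; others were named for a known function after their values were seen.

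The 12 Kc samples were fitted with edgeR 4.0.16 in R 4.3.3 (TMM, quasi-likelihood, batch as a term) over 8847 genes with more than 0 reads in every Kc sample, with Benjamini-Hochberg adjustment and a threshold of 0.05. DESeq2 1.42.0 was an alternative, beside other filters, scalings, strands, blocks and each sample left out. On simulated Kc counts for the *jasper* comparison over 8632 genes, the test found 94.8% of 97 genes changed by 1 and 45.0% of 100 changed by 0.5 on the log2 scale, and 5.52% of its calls were false. The simulated counts had the same dispersion for every gene and no batch effect. These shares therefore do not measure how the test performs on the real counts. Deviations of same-numbered Kc samples from their group means correlated by 0.31 to 0.54, but by -0.14 to 0.19 within group and batch, so the numbers share a batch, which the fit holds. Replicates were compared as a check for duplicates, and over 44 pairs chi-square per degree of freedom was 3.48 to 60.2. No sequences were shown. Figures were drawn with matplotlib 3.10.9.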

Additional observations from a re-analysis of the deposited data

Results flagged for a closer look

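For the 31 members named for their ratio, their level or a call in Kc cells, and for the median of all members, 10 of 192 groups of 4 samples held a sample far from the others of its group. The limit used is passed by 1 in 20 groups of independent, normally distributed values. These groups joined samples of different batches, so how many would pass it by chance is not known. In Kc cells *CR18228* was highest in *jasper* RNAi replicate 3 (40.5 CPM) and in *jil-1* RNAi replicate 3 (45.3 CPM), both near the controls (35.4 to 44.3 CPM), and *grass* was highest in *jil-1* RNAi replicate 2 (16.1 CPM). *CG42402* and *CG31601* were highest in Kc control replicate 4 (6.83 and 1.03 CPM), and *mmd* and *CG31601* in Kc *jasper* RNAi replicate 4 (1.75 and 3.63 CPM). In S2 cells *mmd* was lowest in *jasper* RNAi replicate 8 (3.45 CPM), and *drpr* and *CG43124* were highest in control replicate 8 (198 and 28.0 CPM).

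Some members were lower in all 4 same-numbered pairs of S2 samples, which the rule had used, and higher in all 4 pairs of Kc samples. The difference between the lines was not tested. Upon *jasper* RNAi these were *CG31601*, *Cht10* and *CG6357*, with Kc log2 fold-changes of 1.77, 1.49 and 1.00, *fon*, *CG18473* and *wun2* (0.94, 0.94 and 0.64), *CG44014* and *CG13917* (0.48 and 0.40), and *drpr* and *CG14696* (0.22 and 0.081). Upon *jil-1* RNAi they were *CG31601* and *CG6357* (1.67 and 1.08), *wun2*, *CG9338*, *Cyp12a5* and *sdt* (0.85, 0.76, 0.66 and 0.59), *CG13917*, *nAChRalpha4*, *lncRNA:CR44809* and *HIP* (0.33, 0.29, 0.27 and 0.22), and *Marf1* (0.076). The first 3 of the former list and *CG6357* in the latter passed the threshold. Over all members that were lower in 4 S2 pairs and tested in Kc cells, 10 of 80 were higher in all 4 Kc pairs upon *jasper* RNAi and 20 were lower in all 4. Upon *jil-1* RNAi 11 of 78 were higher in all 4 pairs and 20 were lower. The shares of all genes tested that went 1 way in all 4 Kc pairs were not counted. These counts therefore do not show a trait of the members.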

How the results depend on the processing

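Under the other settings of the rule between 74 and 132 genes met it, and 49 of the 96 members met it under all 24 settings, 66 with any single sample left out. The counts in Kc cells depended more on the fit. Members that fell upon *jasper* RNAi numbered 11, but 17 with no filter, 1 with no batch term, 5 with only control and *jasper* RNAi samples, 5 without *jasper* RNAi replicates 2 and 4, and 5 to 13 with single samples left out. Those that rose numbered 3, but 5 with DESeq2, 7 with no filter, 0 with no batch term, 0 with only control and *jasper* RNAi samples, 1 without *jasper* RNAi replicates 2 and 4, 10 without replicates 1 and 3, and 0 to 5 with single samples left out. Members that fell upon *jil-1* RNAi numbered 9, but 20 with DESeq2, 21 with no filter, 2 with no batch term, 16 and 17 without *jasper* RNAi replicates 2 and 4 or 1 and 3, and 6 to 13 with single samples left out. The 1 that rose became 4 with DESeq2 and with no filter, 0 with no batch term, 3 with the replicate block, 2 with only control and *jil-1* RNAi samples, 3 without *jasper* RNAi replicates 2 and 4, and 0 to 2 with single samples left out. The median upon *jasper* RNAi (-0.09) was -0.18 without *jasper* RNAi replicates 2 and 4 and -0.13 to -0.06 with single samples left out, and that upon *jil-1* RNAi (-0.19) was -0.27 to -0.13. The replicate block, which changed 2 named calls given above, left the other named calls in place. For S2 batch 3 the median moved from -0.79 to -0.62 against the other controls, a setting added after the data were seen. The causes were not tested. None of the single-gene ratios and fold-changes followed through the settings changed sign, while for counts of members a reversal was not defined. The 12 members with 0 reads in some Kc sample were all tested only with no filter, where *CG14273* rose upon *jasper* RNAi (2.47, edgeR adjusted p = 0.042) and *CG9521* fell upon *jil-1* RNAi (-1.26, adjusted p = 0.025).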
